A study of Mus musculus with 12 samples.

Results

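The genes described here encode the membrane fusion machinery of exocytosis: the vesicle and target SNAREs, their Munc18 and Munc13 partners, synaptotagmins, synaptotagmin-like proteins and the Rab27 and Rab3 GTPases. They were taken by gene symbol, from the families named Vamp, Stx, Stxbp, Snap23, Snap25, Snap29, Snap47, Syt, Sytl, Unc13, Rab27 and Rab3. The choice was made with earlier results of these data known. The count table held 60 such genes among 32227. Of these, 39 passed the filter on low counts, as did 15083 genes in all. Bulk RNA sequencing was applied to basophils and their progenitors from untreated wild-type C57BL/6J mice, whose ages were not given in the sources used here. BaPs (unipotent basophil progenitors) were CD200R3+ c-Kit- CLEC12A-high CD34+ cells of the bone marrow. Pre-basophils, titled immature basophils in the sample labels, were CD34- CLEC12A-high CD9-low cells of the bone marrow (BM). Mature basophils were CD34- CLEC12A-low CD9-high cells, sorted separately from the BM and from the spleen. There were 4 groups with 3 libraries each, and each library was a pool of several animals, so that the spread is that between pools and not between single mice.

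Basophils store histamine and proteases in granules and release them when IgE bound to its receptor is crosslinked. Release requires granules to dock and fuse with the plasma membrane or with each other. A VAMP (R-SNARE) on the granule zips together with a syntaxin and a SNAP-25 family protein (Q-SNAREs) on the target membrane. Munc18 proteins hold and template syntaxins, Munc13 proteins prime the complex, synaptotagmins sense calcium, and Rab27 with its synaptotagmin-like effectors tethers granules at the membrane. Other members serve endosome, lysosome, autophagosome, Golgi and endoplasmic reticulum (ER) transport. In mast cells and cytotoxic lymphocytes, granule release is known to use Vamp8, Stx11, Snap23, Stxbp2, Unc13d and Rab27.

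Library totals ran from 3596108 to 8151030 counts. Levels are given as CPM, the gene's counts scaled to a common library total after TMM scaling, which adjusts for the composition of each library. A count of 0 allows up to 3 counts, which is 0.290 to 0.955 CPM depending on the library. BaP replicate 3 stood apart from the other BaP pools. Its summed T and NK cell markers reached 555 CPM, where the other BaP libraries had 16.97 and 18.9 CPM. Its summed erythroid markers were at 2397 CPM against 6.21 and 9.19 CPM, and its summed basophil markers at 25061 CPM against 62678 and 67686 CPM. All 9 basophil markers, among them Fcer1a, Ms4a2, Cd200r3 and Gata2, had counts in all 12 libraries, and the sum of the 3 mast cell markers listed stayed at or below 5.62 CPM. The basophil sums ran from 60952 to 69709.8 CPM among pre-basophil pools. They ran from 10849.6 to 13568 CPM among mature BM pools and from 5462 to 6183 CPM among spleen pools. Prss34 and Mcpt8 made up most of the pre-basophil sums. From pre-basophil to BM mature, their means fell from 45144 to 5065 and from 11892 to 1731 CPM. Fcer1a, Ms4a2, Il3ra and Cpa3 also fell. Cd200r3 rose from 945 to 1118, Gata2 from 1900 to 2262 and Itga2 from 84.6 to 173 CPM, so the sums do not stand for all 9 markers. Summed neutrophil markers were 1965 to 2411 CPM for the BaP and 996 to 2317 CPM for the pre-basophil libraries. They were 89.7 to 127 CPM for the mature libraries of the BM and 59.4 to 67.99 CPM for those of the spleen. The BaP sums hide differences between pools. Over the BaP replicates in order, Mpo was at 1792, 1402 and 562 CPM and S100a8 at 14.6, 138 and 370 CPM. Over the pre-basophil replicates S100a8 was at 45.3, 148 and 333 CPM. Ngp, Ltf, Camp, S100a9 and Lcn2 also rose with replicate number in both groups, whereas Mpo and Elane did not. Summed B cell markers were 182 to 321 CPM in spleen mature against 35.3 to 49.8 CPM in BM mature libraries. The part that these other markers play in any result below was not tested, and in bulk libraries fewer cells of a type and less RNA per cell cannot be told apart.

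Over the 4 groups, 20 of the 39 fusion genes (51.3%) differed in the edgeR quasi-likelihood F test at an adjusted p under 0.05, where 57.8% of all tested genes did. The largest number of calls came at the step from pre-basophil to BM mature basophil. There 6 members rose (15.4%, against 11.0% of all genes) and 5 fell (12.8%, against 16.3%). Sytl3, Sytl2, Rab3c, Stx4a, Unc13d and Snap23 were higher in the mature cells, and the lower genes included Snap47, Vamp7, Snap29 and Stx17. From BaP to pre-basophil, Sytl3, Stx7, Unc13d and Stx8 rose (10.3%, against 4.29%), and 0 members fell (background 2.79%). With an unadjusted p under 0.05, 1 member was lower at that step, and DESeq2 and limma-voom called 0 lower members. Vamp7 was called lower there with the replicate number as a block, with scaling by library size alone and without BaP replicate 3. From BM to spleen mature basophil, Vamp3 fell (2.56%, against 4.67%) and 0 members rose (background 3.16%). There 1 member was higher at an unadjusted p under 0.05 and 0 by DESeq2 or limma-voom. Without the filter or without BaP replicate 3, 2 members were called higher, and 1 with the 6 compared libraries alone.

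The counts of calls depended on single libraries. At the BaP step 7 members were called without BaP replicate 3, 1 without any 1 pre-basophil library, and 2 without BM mature replicate 1 or spleen mature replicate 2. At the BM mature step the count was 6 or 7 without any 1 of the pre-basophil or BM mature libraries and 14 without BaP replicate 3. At the spleen step it was 7 without BaP replicate 3 and 0 without any 1 pre-basophil or BM mature library or spleen mature replicate 1 or 3. Without BaP replicate 2 it was 1, with Sytl1 in place of Vamp3. Median log2 fold changes of the 39 members were 0.10, 0.09 and -0.03 over the successive steps, against -0.02, 0.00 and 0.01 for all genes, and all 3 member medians changed sign with scaling by library size alone (-0.12, -0.13 and 0.11, against -0.23, -0.22 and 0.14 for all genes). In 6 members, each of the 6 mature libraries was above each of the 6 BaP and pre-basophil libraries (15.4%, against 11.6% of all genes). These were Sytl3, Sytl2, Unc13d, Stx4a, Snap23 and Stxbp2. In 4 members, among them Snap47, Vamp7 and Stx17, each mature library was below each earlier library (10.3%, against 16.7%). The balance of higher and lower calls depended on the scaling: without TMM scaling the pre-basophil to BM mature step had 2 higher and 9 lower members. With the iterative scaling of the study's package (DEGES) the same step had 4 higher and 5 lower members. At the BaP step, scaling by library size alone gave 1 higher and 1 lower member.

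**Figure D1:**
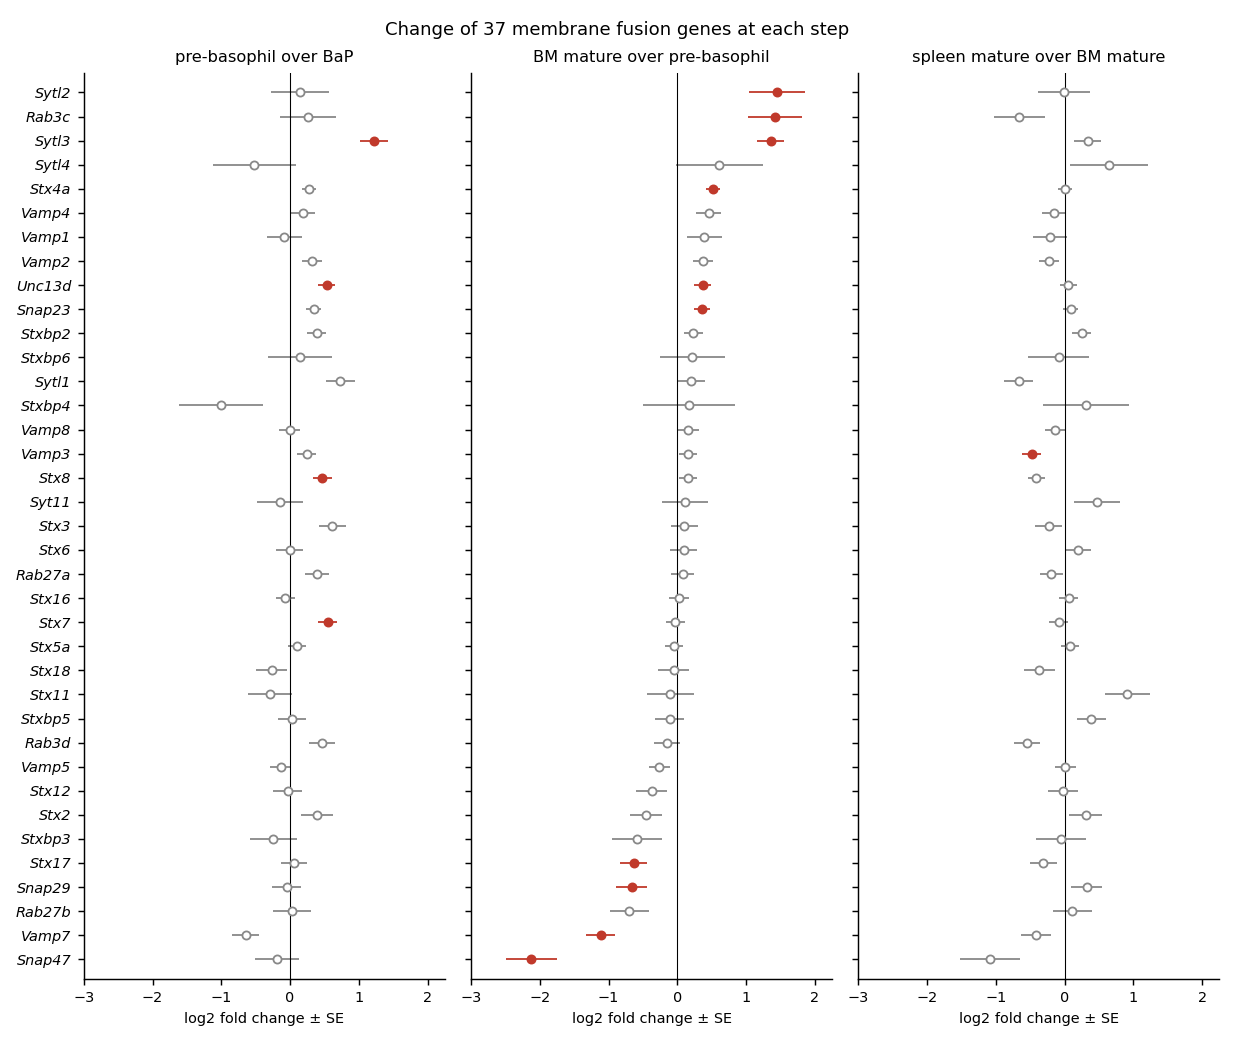
Log2 fold change with its standard error (x axis) of 37 tested fusion genes (y axis) at the 3 steps from BaP to spleen mature basophil, ordered by the middle step. Filled red points have an edgeR adjusted p under 0.05: 4 at the first step, 10 at the second and 1 at the third.

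Levels of different genes were compared per kilobase of exon, which assumes that reads cover transcripts evenly, an assumption that was not tested. In BM mature basophils the mean level was highest for Sytl3, at 97.4 CPM per kb. It was followed by Vamp8 at 76.8, Stx3 at 58.9, Unc13d at 56.9, Stx4a at 47.1, Sytl1 at 42.2, Stxbp2 at 41.6 and Rab27a at 36.6 CPM per kb. These 8 genes thus included an R-SNARE, plasma membrane syntaxins, a Munc18, a Munc13, a Rab27 and Rab27 effectors. Snap23, the highest of the SNAP-25 family, was at 21.003 CPM per kb. In BaPs the order differed, with Vamp8 at 69.5 and Stx3 at 36.1 CPM per kb above Unc13d at 30.6 and Sytl3 at 16.3 CPM per kb. Vamp7 had no match in the annotation used for lengths and has no value on this scale. Without division by length, Sytl3 was also highest in BM mature basophils, at a mean of 493 CPM. Stx3 at 337 and Unc13d at 266 CPM were then above Vamp8 at 177 CPM. The order of genes was not tested.

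**Figure D2:**
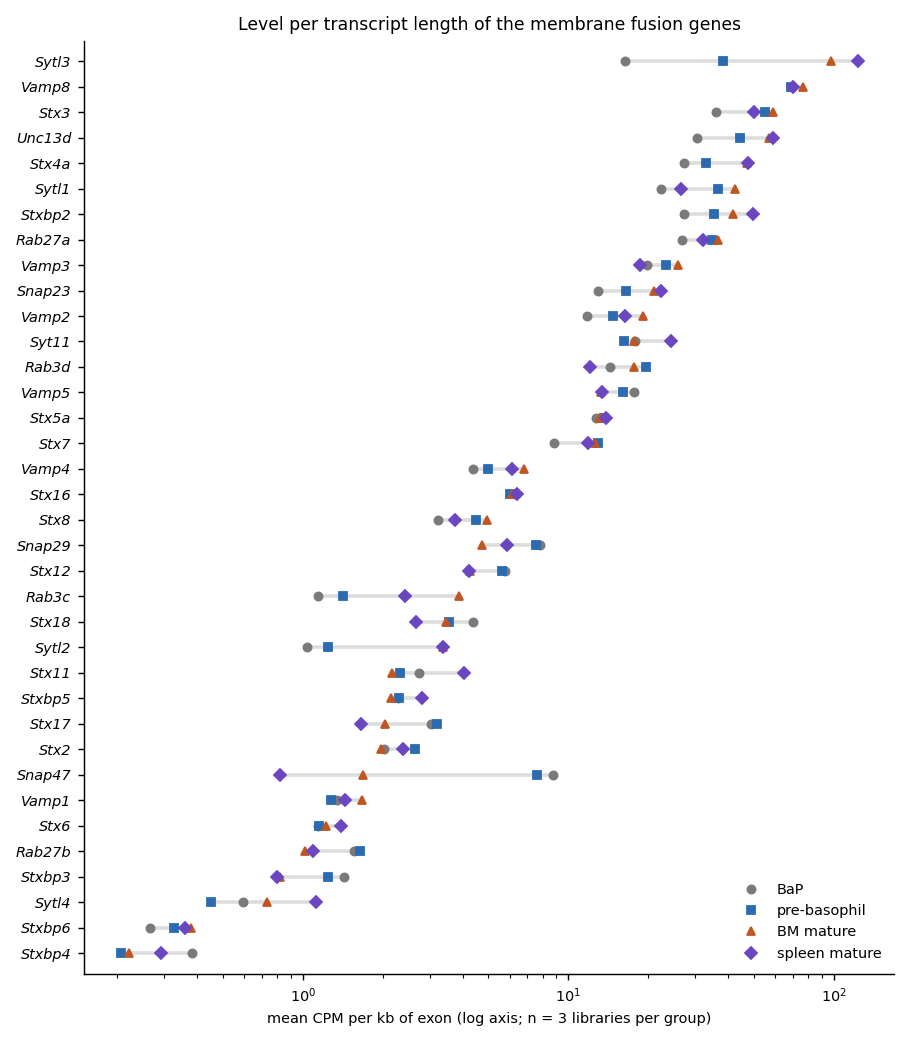
Mean CPM per kb of exon (x axis, log scale, mean of 3 libraries per group) of 36 tested fusion genes (y axis), with a marker for each of the 4 groups and a grey bar over their range. Sytl3 runs from 16.3 CPM per kb in BaPs to its highest mark in spleen mature basophils, and the lowest mark of Snap47 is that in spleen mature basophils.

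Summed over the members, the level was 1767 ± 118 CPM (SD, n = 3) for the BaPs, 2229.6 ± 58.3 for the pre-basophils, 2755 ± 41.3 for mature cells of the BM and 2780.3 ± 164 for those of the spleen. Without Sytl3 the sums were 1685 ± 144, 2037 ± 38.1, 2262 ± 70.1 and 2159 ± 122 CPM in the same order. Without TMM scaling, the members held 0.194, 0.210 and 0.211% of all counts in BaPs and 0.215, 0.239 and 0.226% in pre-basophils. The shares were 0.227, 0.258 and 0.235% in BM mature and 0.258, 0.264 and 0.272% in spleen mature basophils. Those of pre-basophils and BM mature basophils overlapped. The mean of Sytl3 itself was 193 ± 29.3 CPM before and 493 ± 84.6 CPM after the BM mature step.

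To show the sequence at the start of the genes with the largest changes, the 250 bases before the RefSeq start (GRCm38.p6) are given for the 2 risers and 2 fallers of the BM mature step with the largest fold changes among those in the promoter table. These are Sytl3 (chr17:6658809-6659058 on the plus strand), Rab3c (chr13:110280207-110280456 on the minus strand), Snap47 (chr11:59450035-59450284 on the minus strand) and Snap29 (chr16:17405750-17405999 on the plus strand). Capitals mark matches, on either strand, to GATAA (GATA factors), TGANTCA (AP-1), TGTGGT (RUNX factors) or GGAAGT (ETS factors), and no matches overlapped with each other.
Sytl3: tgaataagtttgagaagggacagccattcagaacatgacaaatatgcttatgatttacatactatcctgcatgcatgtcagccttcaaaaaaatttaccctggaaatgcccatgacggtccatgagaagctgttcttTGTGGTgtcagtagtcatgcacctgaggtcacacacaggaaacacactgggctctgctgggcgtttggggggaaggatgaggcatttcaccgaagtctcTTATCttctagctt
Rab3c: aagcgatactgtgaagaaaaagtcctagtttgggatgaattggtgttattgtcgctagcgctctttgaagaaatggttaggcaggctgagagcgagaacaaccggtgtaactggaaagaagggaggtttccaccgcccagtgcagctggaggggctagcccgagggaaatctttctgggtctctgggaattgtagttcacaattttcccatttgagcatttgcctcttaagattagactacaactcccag
Snap47: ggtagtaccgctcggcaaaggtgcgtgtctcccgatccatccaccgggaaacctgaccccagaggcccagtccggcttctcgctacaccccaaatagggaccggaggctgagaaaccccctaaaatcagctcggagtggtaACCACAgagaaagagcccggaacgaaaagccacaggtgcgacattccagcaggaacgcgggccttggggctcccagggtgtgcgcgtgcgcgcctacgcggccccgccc
Snap29: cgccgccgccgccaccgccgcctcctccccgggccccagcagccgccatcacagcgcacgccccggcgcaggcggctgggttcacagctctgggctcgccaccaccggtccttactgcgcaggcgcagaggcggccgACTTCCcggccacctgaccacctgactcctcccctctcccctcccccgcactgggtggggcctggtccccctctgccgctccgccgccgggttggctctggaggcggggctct

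The Sytl3 window held GATAA, read on the opposite strand, starting 14 bases before the start and TGTGGT starting 113 bases before it. The Rab3c window held none of the 4 motifs. The Snap47 window held TGTGGT 109 bases before the start, and that of Snap29 GGAAGT 113 bases before it, both on the opposite strand. The promoter table had entries for 31 of the 39 tested members and for 7 of the 11 members called at this step, and Sytl2, Unc13d and Vamp7 had none. Over 37 windows of tested members, GATAA was found in 3, TGANTCA in 0, TGTGGT in 9 and GGAAGT in 6. In all 32851 windows of the table the shares were 22.6%, 6.75%, 14.0% and 19.7%. Besides Sytl3, Stx17 was the only called member with GATAA, starting 167 bases before its start. A match is a description of the letters and not evidence of a bound factor, and a missing match says only that these letters are not in the window.

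Synaptotagmin-like proteins bind Rab27 on granules and tether them to the plasma membrane. Of the 4 listed, 3 differed among the groups (57.8% of all genes did), and Sytl3 rose at both BM steps. Sytl3 was at 63.1, 70.5 and 114 CPM across the BaP pools, 163, 193 and 222 across the pre-basophil pools, 449, 439.9 and 591 across the mature pools of the BM and 585, 610.3 and 669.6 across those of the spleen. Each pre-basophil library was above each BaP library, and each mature library above each pre-basophil library. The change from BaP to pre-basophil was 2.32-fold (log2 fold change 1.22 ± 0.20 (SE), adjusted p = 0.0034), and that from pre-basophil to BM mature basophil 2.56-fold (1.35 ± 0.20 (SE), adjusted p = 0.00025). From BM to spleen the log2 difference was 0.33 ± 0.19 (SE) with an adjusted p of 0.313. Without BaP replicate 3, the highest BaP library, the first step had a log2 fold change of 1.52. Both Sytl3 calls held in all 21 alternatives computed. The annotated Sytl3 gene shares 4 bases with Ezr on the opposite strand.

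Sytl2, which also links Rab27 to the membrane, rose only at the later BM step in the fit of all libraries. Sytl2 was at 5.26, 8.25 and 29.8 CPM across the BaP pools, 16.5, 19.5 and 15.99 across the pre-basophil pools, 41.4, 51.1 and 48.9 across the mature pools of the BM and 46.6, 46.7 and 47.9 across those of the spleen. BaP replicate 3 was far above the other BaP libraries and above all pre-basophil libraries, whereas no mature library overlapped with an earlier one. Mature BM cells had a 2.73-fold higher level than pre-basophils (log2 fold change 1.45 ± 0.41 (SE), adjusted p = 0.0173). Leaving out BaP replicate 3 gave Sytl2 a call at the BaP step too, where the log2 fold change was then 1.34 (adjusted p = 0.00043) in place of 0.14 (adjusted p = 0.891). The later call was lost on leaving out replicate 1 or 3 of the pre-basophils or replicate 2 of the BM mature basophils, with adjusted p of 0.0592, 0.0645 and 0.0559, and with scaling by library size alone.

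Sytl1, a further Rab27 effector, differed among the 4 groups (adjusted p = 0.00598) but passed at no single step. Sytl1 was at 51.1, 80.9 and 37.4 CPM across the BaP pools, 83.6, 94.5 and 99.6 across the pre-basophil pools, 110.1, 113 and 96.03 across the mature pools of the BM and 62.1, 66.5 and 71.7 across those of the spleen. The 3 spleen libraries were all below the BM mature and pre-basophil libraries, and BaP replicate 2 lay close to the pre-basophils. The log2 differences were 0.73 ± 0.21 (SE) from BaP to pre-basophil (adjusted p = 0.0517) and -0.67 ± 0.21 (SE) from BM to spleen (adjusted p = 0.0636). With the replicate number as a block, which pairs the BM pools, the first had an adjusted p of 0.0291, or 0.0368 over the BM libraries alone. Without BaP replicate 3 the adjusted p values were 0.0482 and 0.00223, and without BaP replicate 2 0.00225 and 0.0148. Sytl4 stayed between 0.707 and 7.76 CPM and passed no test.

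Munc13-4, encoded by Unc13d, primes granules for fusion and binds Rab27. Unc13d was at 154, 158 and 118 CPM across the BaP pools, 209, 209.6 and 201 across the pre-basophil pools, 285, 278 and 236 across the mature pools of the BM and 258, 275 and 294 across those of the spleen. The pre-basophil libraries were above every BaP library, and the mature libraries of both tissues above every pre-basophil library. Unc13d rose 1.45-fold from BaP to pre-basophil (log2 fold change 0.53 ± 0.13 (SE), adjusted p = 0.024) and 1.29-fold to BM mature basophil (0.37 ± 0.13 (SE), adjusted p = 0.0441). The first call was lost without any 1 of the pre-basophil libraries (adjusted p 0.0732 to 0.0931). The second rested on every library except BaP replicate 3 and BM mature replicate 3, with adjusted p from 0.0513 without spleen mature replicate 3 to 0.162 without BM mature replicate 1 on leaving out any 1 of the other 10. With library size alone both Unc13d calls were lost, the first also with the 6 compared libraries alone and the second also with DEGES scaling and without the filter, so that they held in 16 and 8 of 21 alternatives. The related Unc13a, Unc13b and Unc13c, known from neurons, did not pass the count filter.

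Rab27a and Rab27b mark secretory granules. Rab27a was at 113, 125 and 71.7 CPM across the BaP pools, 127, 148 and 129.5 across the pre-basophil pools, 133, 156 and 137 across the mature pools of the BM and 134, 125 and 114 across those of the spleen. The BaP libraries lay below the pre-basophil and BM mature libraries, lowest in replicate 3, and the spleen libraries overlapped with all other groups. Rab27a did not pass among the 4 groups (adjusted p = 0.117). Rab27b had means of 16.7 ± 7.29, 17.5 ± 1.38, 10.9 ± 2.70 and 11.7 ± 2.60 CPM (SD, n = 3) in the order of the groups and a log2 difference of -0.70 ± 0.29 (SE) at the BM mature step that did not pass (adjusted p = 0.091). In BaP replicate 3 Rab27b was at 25.1 CPM, and without that library the difference was -0.71 and passed, with an adjusted p of 0.0133.

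Rab3 GTPases act on secretory vesicles beside Rab27. Rab3c was at 10.99, 7.31 and 22.9 CPM across the BaP pools, 16.2, 11.9 and 23.2 across the pre-basophil pools, 56.3, 35.8 and 47.4 across the mature pools of the BM and 16.003, 32.01 and 39.7 across those of the spleen. All BM mature libraries were above all BaP and pre-basophil libraries, whereas spleen mature replicate 1 lay within the pre-basophil range. Rab3c rose 2.67-fold from pre-basophil to BM mature basophil (log2 fold change 1.42 ± 0.39 (SE), adjusted p = 0.0154). The call was lost on leaving out replicate 1 or 2 of the pre-basophils or replicate 1 of the BM mature basophils, with adjusted p of 0.0556, 0.0721 and 0.0563. Rab3d differed among the groups (adjusted p = 0.0225), with means of 60.3 ± 17.2, 82.4 ± 5.39, 73.98 ± 9.03 and 50.8 ± 6.77 CPM. Its log2 difference from BM to spleen was -0.54 ± 0.19 (SE) (adjusted p = 0.095), and it passed without BaP replicate 3 (adjusted p = 0.00415). Rab3a and Rab3b did not pass the count filter, with at most 11 and 9 counts in a library.

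**Figure D3:**
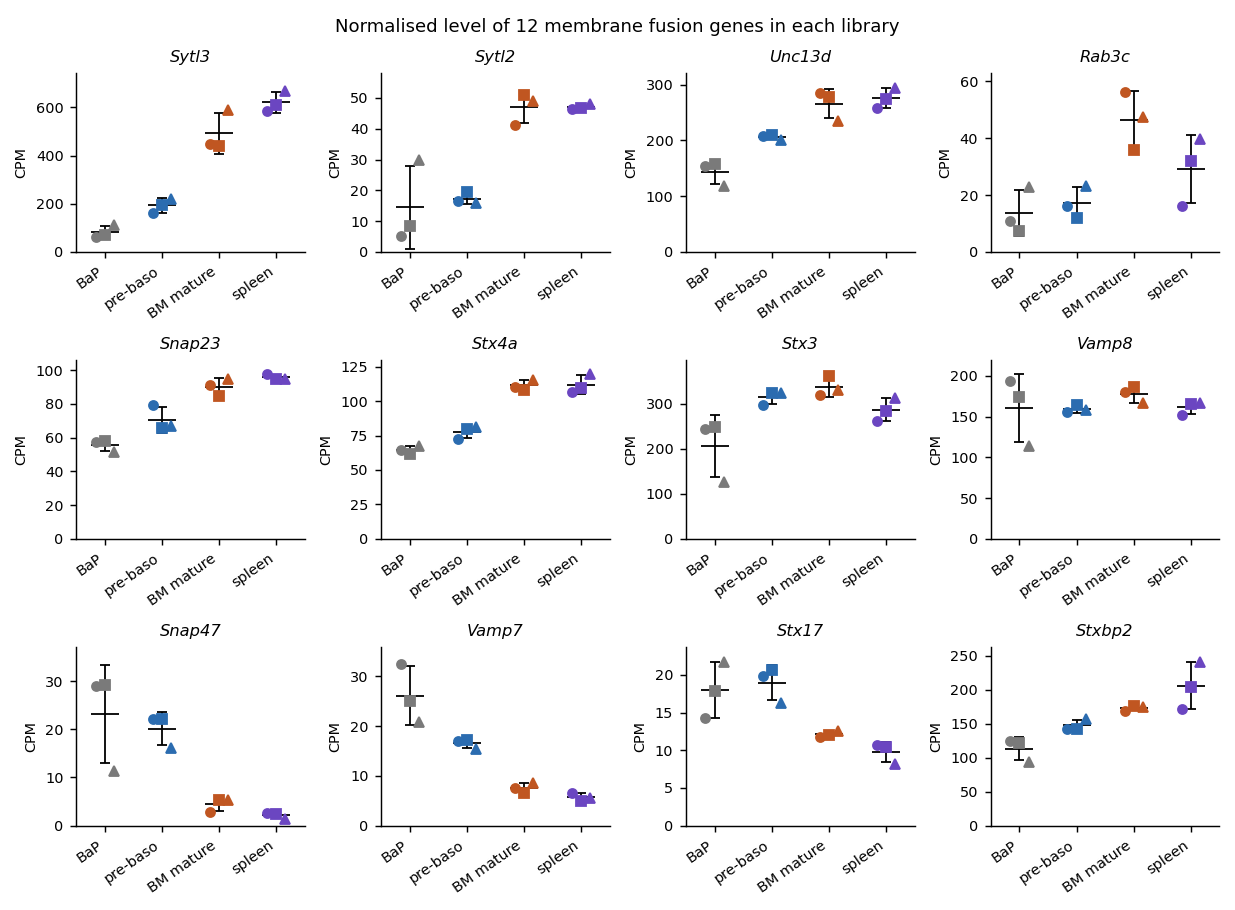
CPM (y axis, from 0) of 12 fusion genes in each of the 12 libraries, by group (x axis), with replicate 1 as a circle, 2 as a square and 3 as a triangle; black bars give the mean ± SD of 3 libraries. Sytl3 and Unc13d step up without overlap from BaPs to pre-basophils to mature cells, Vamp8 lies between 114 and 194 CPM, Stxbp2 is highest in mature cells, and Snap47, Vamp7 and Stx17 are lowest there.

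Plasma membrane syntaxins receive granules at the cell surface. Of the 13 tested syntaxins of all compartments, 5 differed among the groups, where 57.8% of all genes did. Stx4a was at 64.5, 61.5 and 67.2 CPM across the BaP pools, 72.4, 80.1 and 80.9 across the pre-basophil pools, 110.4, 108 and 116 across the mature pools of the BM and 107, 109.7 and 119.7 across those of the spleen. All 6 mature libraries lay above the earlier ones, and BM and spleen overlapped. Stx4a, which encodes syntaxin 4, rose 1.43-fold from pre-basophil to BM mature basophil (log2 fold change 0.52 ± 0.10 (SE), adjusted p = 0.00216). This call held on leaving out each library in turn and was lost with scaling by library size alone (adjusted p = 0.0837). In the GENCODE annotation on GRCm38, Stx4a lies at chr7:127824294-127849019.

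Stx3, the syntaxin with the highest level per kb, differed among the 4 groups (adjusted p = 0.0287). Stx3 was at 244, 248 and 127 CPM across the BaP pools, 296, 323 and 323 across the pre-basophil pools, 318, 362 and 329 across the mature pools of the BM and 262, 284 and 312 across those of the spleen. BaP replicate 3 was the lowest of all libraries, and the other BaP libraries were also below the 9 later-stage libraries. The log2 difference from BaP to pre-basophil was 0.61 ± 0.20 (SE) with an adjusted p of 0.0734. It passed when any 1 BaP library was left out, at 0.35 (adjusted p = 0.0376) without replicate 3, and adjusted p of 0.0475 and 0.0426 without replicates 1 and 2. Stx11, a syntaxin of cytotoxic granule release, had means of 11.5 ± 5.39, 9.78 ± 1.004, 9.13 ± 1.74 and 17.1 ± 6.38 CPM and no call at any step. Its log2 difference from BM to spleen was 0.91 ± 0.32 (SE) (adjusted p = 0.101), or 0.91 with an adjusted p of 0.0165 without BaP replicate 3.

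Stx7 and Stx8 are partners in late endosome fusion. Stx7 was at 40.8, 37.95 and 39.5 CPM across the BaP pools, 63.7, 57.7 and 51.7 across the pre-basophil pools, 56.97, 51.6 and 60.3 across the mature pools of the BM and 62.9, 52.3 and 43.96 across those of the spleen. All pre-basophil libraries were above all BaP libraries, and the pre-basophil and mature libraries overlapped. Stx7 rose 1.46-fold from BaP to pre-basophil (log2 fold change 0.55 ± 0.14 (SE), adjusted p = 0.0341). Stx8 was at 21.5, 25.7 and 21.98 CPM across the BaP pools, 34.1, 32.4 and 29.4 across the pre-basophil pools, 34.4, 34.3 and 37.3 across the mature pools of the BM and 29.8, 26.1 and 24.04 across those of the spleen. The 3 BaP libraries were below the pre-basophil and BM mature libraries, and the spleen libraries overlapped with both BaPs and pre-basophils. Stx8 rose 1.39-fold (0.47 ± 0.13 (SE), adjusted p = 0.0473).

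Both calls depended on single libraries. That of Stx7 was lost without BaP replicate 1 or 2 (adjusted p 0.0516 to 0.074), any 1 pre-basophil library (0.0591 to 0.145), BM mature replicate 1 (0.06) or spleen mature replicate 2 (0.0505), and also with scaling by library size alone and with the 6 compared libraries alone. That of Stx8 was lost without BaP replicate 1 or 3 (0.0855 to 0.109), any 1 pre-basophil (0.0869 to 0.166) or BM mature library (0.0606 to 0.0752) or spleen mature replicate 2 (0.0647), and with a replicate block over the BM libraries alone (0.0569), all as adjusted p. Stx8 was also not called by DESeq2 or limma-voom, with DESeq2 size factors, DEGES or library size scaling, without the filter or with the 6 compared libraries alone, and so held in 4 of 21 alternatives.

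Stx17 resides on autophagosomes and pairs there with Snap29 and Vamp8 to fuse them with lysosomes. Stx17 was at 14.3, 17.9 and 21.7 CPM across the BaP pools, 19.8, 20.7 and 16.3 across the pre-basophil pools, 11.8, 12.02 and 12.5 across the mature pools of the BM and 10.7, 10.4 and 8.23 across those of the spleen. Every mature library was below every earlier library. Stx17 fell 1.55-fold from pre-basophil to BM mature basophil (log2 fold change -0.64 ± 0.19 (SE), adjusted p = 0.0252). The call was lost without pre-basophil replicate 1 or 2 (adjusted p 0.0777 to 0.0834) or any 1 BM mature library (0.0589 to 0.0688). Of its partners, Snap29 also fell at that step and Vamp8 did not pass. The syntaxins of the Golgi and ER, Stx5a, Stx6, Stx16 and Stx18, and Stx2 and Stx12 passed neither at a step nor among the groups, with log2 differences at the BM mature step from -0.46 for Stx2 to 0.09 for Stx6. Stx1a and Stx19 did not pass the count filter.

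The SNAP-25 family supplies the remaining target SNARE helices, and all 3 tested members differed among the groups, as did 57.8% of all genes. Snap23, its member in most non-neuronal cells, rose, while Snap29 and Snap47 fell. Snap23 was at 57.6, 58.2 and 51.2 CPM across the BaP pools, 79.4, 65.5 and 66.7 across the pre-basophil pools, 91.3, 84.6 and 94.5 across the mature pools of the BM and 97.6, 94.9 and 94.7 across those of the spleen. The mature libraries all lay above the earlier ones, and those of the spleen were nearly equal. Snap23 was 1.28-fold higher in BM mature than in pre-basophils (log2 fold change 0.36 ± 0.11 (SE), adjusted p = 0.031). The call was lost without pre-basophil replicate 2 or 3 (adjusted p 0.11 to 0.134), without BM mature replicate 1 or 3 (0.0884 to 0.102) with DEGES or library size scaling and without the filter.

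Snap47, an atypical SNAP-25 relative found on internal membranes, had the largest fall of the family. Snap47 was at 28.9, 29.2 and 11.4 CPM across the BaP pools, 22.1, 22.2 and 16.2 across the pre-basophil pools, 2.86, 5.26 and 5.24 across the mature pools of the BM and 2.72, 2.31 and 1.46 across those of the spleen. All mature libraries were below all earlier ones, and BaP replicate 3 was the lowest of the earlier libraries. Snap47 fell 4.37-fold from pre-basophil to BM mature basophil (log2 fold change -2.13 ± 0.37 (SE), adjusted p = 0.000833), and the call held in all 21 alternatives computed. The gene lies at chr11:59407134-59451186 on GRCm38 and shares 1142 bases with Jmjd4 on the opposite strand. Jmjd4 had a log2 difference of 0.31 at this step (adjusted p = 0.442). Snap29 was at 25.1, 31.8 and 23.7 CPM across the BaP pools, 30.7, 23.4 and 23.7 across the pre-basophil pools, 17.8, 16.02 and 15.2 across the mature pools of the BM and 24.6, 13.2 and 22.8 across those of the spleen. The BM mature libraries were below all earlier ones, and the spleen libraries were spread from below the BM mature range to within the pre-basophil range. Snap29 fell 1.59-fold at the BM mature step (-0.67 ± 0.22 (SE), adjusted p = 0.0395), a call lost on leaving out any 1 pre-basophil (adjusted p 0.0572 to 0.161) or BM mature library (0.0683 to 0.124), and not made by limma-voom. Snap29 shares 329 bases with Pi4ka on the opposite strand. Snap25, the neuronal member, had at most 3 counts in a library.

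VAMPs are the vesicle SNAREs. Vamp8, the granule and endosome VAMP of regulated secretion, had the highest level per kb among them and passed no test. Of the 7 tested VAMPs, 4 differed among the groups, where 57.8% of all genes did. Vamp8 was at 194, 174 and 114 CPM across the BaP pools, 155, 164 and 159 across the pre-basophil pools, 180.1, 186 and 166 across the mature pools of the BM and 153, 166 and 167 across those of the spleen. BaP replicate 3 was the lowest library, the other BaP libraries were above the pre-basophils, and the spleen libraries overlapped with both pre-basophils and BM mature basophils. The log2 difference from pre-basophil to BM mature basophil was 0.15 ± 0.16 (SE) (adjusted p = 0.506). Vamp7, the VAMP of late endosomes and lysosomes, fell. Vamp7 was at 32.5, 24.99 and 20.8 CPM across the BaP pools, 17.1, 17.3 and 15.4 across the pre-basophil pools, 7.64, 6.51 and 8.61 across the mature pools of the BM and 6.56, 4.95 and 5.58 across those of the spleen. Each pre-basophil library was below each BaP library, and each mature library below each pre-basophil library. Vamp7 fell 2.16-fold at the BM mature step (log2 fold change -1.11 ± 0.21 (SE), adjusted p = 0.00148), which held in all 21 alternatives computed. At the BaP step the log2 difference was -0.65 ± 0.19 (SE) with an adjusted p of 0.057, which was 0.0444 with the replicate block over all libraries and 0.00924 without BaP replicate 3. It also passed with scaling by library size alone, but not with the block over the BM libraries alone.

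Vamp2 and Vamp3 act in regulated and recycling endosome exocytosis. Vamp2 was at 44.2, 43.1 and 46.96 CPM across the BaP pools, 49.2, 63.8 and 55.3 across the pre-basophil pools, 68.1, 84.4 and 65.9 across the mature pools of the BM and 53.3, 70.3 and 62.7 across those of the spleen. The BM mature libraries were above the pre-basophil libraries, and the spleen libraries overlapped with both. Vamp2 differed among the groups (adjusted p = 0.00608). Its log2 difference at the BM mature step was 0.37 ± 0.14 (SE) (adjusted p = 0.069), which passed with the replicate block (adjusted p = 0.0339) and without BaP replicate 3 (0.035). Vamp3 was at 59.7, 57.05 and 55.1 CPM across the BaP pools, 75.7, 62.6 and 64.6 across the pre-basophil pools, 66.8, 79.4 and 78.6 across the mature pools of the BM and 52.97, 62.4 and 46.1 across those of the spleen. The 3 spleen libraries were below the 3 BM mature libraries. Vamp3 was the only member called between the tissues, with a 1.40-fold fall in the spleen (log2 fold change -0.48 ± 0.13 (SE), adjusted p = 0.0436).

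That Vamp3 call was lost on leaving out any 1 of 9 libraries, with adjusted p from 0.0513 without pre-basophil replicate 1 to 0.18 without spleen mature replicate 3. It held without BaP replicate 1 or 3 or spleen mature replicate 2, and was also lost with library size alone and without the filter. Vamp3 lies within Camta1 on the same strand in the annotation, and Camta1 had a log2 difference of -0.51 between the tissues (adjusted p = 0.165). Vamp4, a VAMP of the trans-Golgi network, differed among the groups (adjusted p = 0.0244), with means of 19.99 ± 5.46, 22.8 ± 2.79, 31.2 ± 2.62 and 28.01 ± 2.18 CPM. Its log2 difference at the BM mature step was 0.46 ± 0.18 (SE) (adjusted p = 0.0746), which passed on leaving out any 1 BaP library (adjusted p 0.046 to 0.0492). Vamp1 and Vamp5 passed no test. Vamp5 and Vamp8 are neighbours on the same strand of chromosome 6, at chr6:72368794-72380468 and chr6:72385223-72390703 (GRCm38). Their log2 differences at the BM mature step were -0.27 and 0.15.

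Munc18 proteins clasp syntaxins. Stxbp2 (Munc18-2), the partner of Stx3 and Stx11 in granulocytes and lymphocytes, had the highest level per kb among them. Stxbp2 was at 124, 122 and 93.1 CPM across the BaP pools, 143, 143 and 156 across the pre-basophil pools, 169, 175 and 175 across the mature pools of the BM and 172, 204 and 240.4 across those of the spleen. Every mature library was above every earlier library, with the spleen libraries the most spread. It differed among the groups (adjusted p = 0.000821) but at no single step, with log2 differences of 0.39 ± 0.14 (SE), 0.23 ± 0.14 (SE) and 0.25 ± 0.14 (SE). Stxbp3 (Munc18-3), which binds syntaxin 4, had means of 7.64 ± 3.79, 6.64 ± 1.77, 4.38 ± 0.759 and 4.25 ± 1.05 CPM and passed no test, nor did Stxbp4, Stxbp5 and Stxbp6.

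Synaptotagmins are the calcium sensors of fusion. Only Syt11, which belongs to the forms that do not bind calcium, passed the count filter. Syt11 was at 53.7, 60.6 and 163 CPM across the BaP pools, 79.7, 79.4 and 94.996 across the pre-basophil pools, 106, 95.1 and 74.7 across the mature pools of the BM and 99.2, 116 and 166 across those of the spleen. BaP replicate 3 and spleen mature replicate 3 were the highest libraries, and BM mature libraries overlapped with all other groups. Syt11 did not pass among the groups (adjusted p = 0.378). Without BaP replicate 3 its log2 difference from BM to spleen of 0.48 had an adjusted p of 0.044. The other 11 synaptotagmins listed were below the filter, Syt2 and Syt7, which are known from mast cell and lysosome secretion, with at most 6 and 4 counts in a library. The highest value among all 21 members below the filter was 2.86 CPM, and 5 of them, Rab3a, Syt12, Syt13, Syt15 and Unc13a, had counts in all 12 libraries. Vamp9 and the pseudogene Stxbp3-ps were also below the filter.

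Ratios of related genes within a library do not depend on scaling between libraries, and are given as log2 ratios of counts with a prior count of 2. Vamp8 to Vamp7 had mean ratios of 2.59 ± 0.17, 3.23 ± 0.10, 4.47 ± 0.26 and 4.76 ± 0.26 (SD, n = 3) in the order BaP, pre-basophil, BM mature and spleen mature. In pre-basophils the 3 values were 3.15, 3.21 and 3.34, and in BM mature basophils 4.45, 4.74 and 4.21, with no overlap. The spleen mature values, from 4.47 to 4.98, overlapped with those of BM mature basophils. Snap29 to Snap23 was -1.05 ± 0.17, -1.43 ± 0.07, -2.43 ± 0.16 and -2.28 ± 0.47, with no overlap between pre-basophils and BM mature basophils. Sytl3 to Sytl1 was 0.57 ± 0.93, 1.05 ± 0.10, 2.20 ± 0.36 and 3.21 ± 0.02, and the 3 spleen values of 3.23, 3.19 and 3.22 were above those of BM mature basophils. Stx4a to Stx3 was -1.61 ± 0.60, -2.01 ± 0.01, -1.59 ± 0.13 and -1.35 ± 0.05. In BaP replicate 3 it was -0.91, above all other libraries. Stxbp3 to Stxbp2 was -3.90 ± 0.84, -4.41 ± 0.36, -5.16 ± 0.17 and -5.51 ± 0.18, and Stx7 to Stx12 1.11 ± 0.34, 1.68 ± 0.18, 2.02 ± 0.15 and 1.94 ± 0.24. Rab27b to Rab27a was -2.64 ± 0.99, -2.92 ± 0.22, -3.67 ± 0.42 and -3.40 ± 0.27, with all BM mature values below all pre-basophil values. Vamp3 to Vamp2 was 0.35 ± 0.11, 0.27 ± 0.32, 0.05 ± 0.18 and -0.21 ± 0.22, with overlap between neighbouring groups. The ratio of Rab3d to Rab3a was not read because Rab3a did not pass the count filter.

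**Figure D4:**
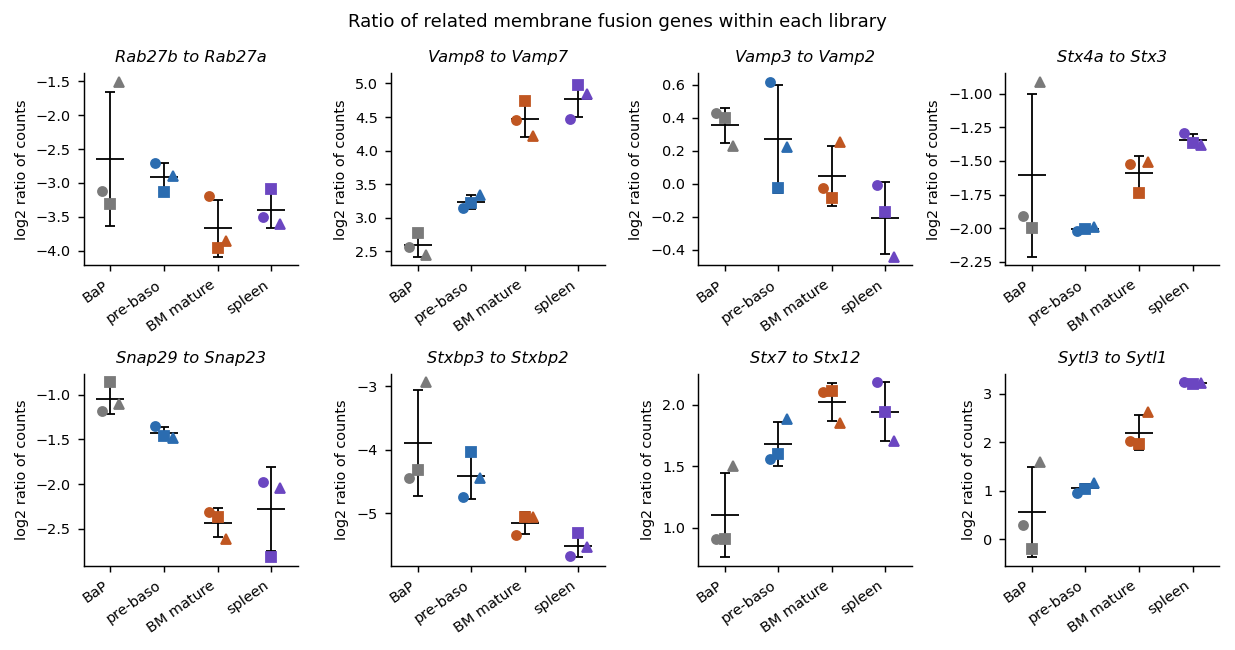
Log2 ratio of the counts (y axis) of 8 pairs of related fusion genes in each of the 12 libraries, by group (x axis), with replicate 1 as a circle, 2 as a square and 3 as a triangle; black bars give mean ± SD of 3 libraries. Vamp8 to Vamp7 separates pre-basophils from BM mature basophils upwards and Snap29 to Snap23 downwards, and BaP replicate 3 is the highest BaP library in Rab27b to Rab27a, Stx4a to Stx3, Stxbp3 to Stxbp2, Stx7 to Stx12 and Sytl3 to Sytl1.

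Of 75 listed genes that work with the fusion machinery (disassembly factors, complexins, Rab effectors, exocyst, tethering and granule biogenesis factors, and SNAREs of other steps), 64 were tested. From pre-basophil to BM mature basophil, 7 rose (10.9%, against 11.0% of all genes) and 5 fell (7.81%, against 16.3%). The risers were Cplx2, Exph5, Lyst, Exoc6b, Madd, Rab44 and Use1, and the fallers Bet1, Vps45, Sec22b, Scfd1 and Txlna. Cplx2, a complexin that binds the assembled SNARE complex, rose with Rab3c at this step. Cplx2 was at 7.17, 4.48 and 19.8 CPM across the BaP pools, 15.4, 10.7 and 15.5 across the pre-basophil pools, 52.5, 27.8 and 37.3 across the mature pools of the BM and 12.3, 20.6 and 34.3 across those of the spleen. The BM mature libraries were above all earlier ones, and those of the spleen overlapped with both stages, with a log2 fold change of 1.48 ± 0.45 (SE) at the BM mature step (adjusted p = 0.0258). Lyst was at 73.1, 90.997 and 139.9 CPM across the BaP pools, 168, 178 and 164 across the pre-basophil pools, 367, 403 and 350.4 across the mature pools of the BM and 415, 399 and 400.4 across those of the spleen. Lyst, the lysosomal trafficking regulator that limits granule size, rose at both BM steps without overlap, with log2 fold changes of 0.74 ± 0.18 (SE) (adjusted p = 0.0263) and 1.13 ± 0.18 (SE) (adjusted p = 0.000404). Exph5, a Rab27 effector, rose from a mean of 2.12 ± 1.001 to 5.23 ± 1.59 CPM (log2 fold change 1.21 ± 0.38 (SE), adjusted p = 0.0314). The call of Cplx2 was lost without any 1 pre-basophil library (adjusted p 0.0609 to 0.0991) or BM mature replicate 1 or 3 (0.0569 to 0.1), and that of Exph5 without replicate 1 or 2 of either group (adjusted p 0.0942 to 0.12 and 0.0622 to 0.123). Both were lost with library size alone, and limma-voom did not call Exph5. The first call of Lyst was lost without BaP replicate 1 or 2 (adjusted p 0.0509 to 0.0614) or any 1 pre-basophil library (0.0692 to 0.0963), with library size alone and with the 6 compared libraries alone, and the later one held in all 21 alternatives.

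Among the companions that fell at the BM mature step, Bet1 and Sec22b are SNAREs of ER to Golgi transport and Vps45 is the Munc18 relative of endosomes. Bet1 was at 43.2, 48.3 and 25.9 CPM across the BaP pools, 20.4, 27.995 and 20.95 across the pre-basophil pools, 6.68, 8.01 and 6.36 across the mature pools of the BM and 2.72, 3.47 and 3.98 across those of the spleen. The mature libraries were below all earlier ones. The log2 fold changes were -1.72 ± 0.26 (SE) for Bet1 (adjusted p = 0.000268), -1.56 ± 0.26 (SE) for Vps45 (adjusted p = 0.000671) and -0.73 ± 0.17 (SE) for Sec22b (adjusted p = 0.00469). From BaP to pre-basophil, 2 companions rose (3.12%, against 4.29% of all genes) and 1 fell (1.56%, against 2.79%). Rab11a, the GTPase of recycling endosomes, rose by 0.83 ± 0.14 (SE) (adjusted p = 0.00358), and Scfd2 fell (log2 fold change -0.83 ± 0.20 (SE), adjusted p = 0.0259). The calls of Bet1, Vps45 and Sec22b at the BM mature step and of Rab11a held in all 21 alternatives, and that of Scfd2 was lost without BaP replicate 1 (0.0566) or pre-basophil replicate 2 or 3 (0.11 to 0.119), all as adjusted p, and with the 6 compared libraries alone. With the replicate block, Bet1 also passed at the BaP step (adjusted p = 0.0328 in place of 0.0591), as it did without BaP replicate 3 (0.00117).

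From BM to spleen, 1 companion rose (1.56%, against 3.16% of all genes) and 5 fell (7.81%, against 4.67%), namely Bet1, Rab11a, Scamp2, Ap3b1 and Rabgef1. Rab11a was at 144, 160.1 and 105 CPM across the BaP pools, 254, 231 and 241 across the pre-basophil pools, 334, 289 and 309 across the mature pools of the BM and 177, 173 and 163 across those of the spleen. The spleen libraries were far below those of the BM mature basophils and pre-basophils and slightly above those of the BaPs. Rab11a fell with a log2 fold change of -0.86 ± 0.14 (SE) (adjusted p = 0.00476), Bet1 with -1.03 ± 0.29 (SE) (adjusted p = 0.045) and Scamp2, a carrier protein of recycling vesicles, with -0.81 ± 0.17 (SE) (adjusted p = 0.0147). Hps5, a granule biogenesis factor, rose with 0.64 ± 0.18 (SE) (adjusted p = 0.0486). The Rab11a call held in all 20 alternatives. That of Scamp2 was lost without BM mature replicate 2 or 3 (adjusted p 0.0561 to 0.0576) or spleen mature replicate 1 or 3 (0.0517 to 0.0576). The call of Bet1 was lost without any 1 library outside the BaPs (adjusted p 0.0534 without pre-basophil replicate 2 to 0.144 without BM mature replicate 2), with library size alone and by limma-voom. Hps5 kept its call only without BaP replicate 3 among the 12 libraries, with adjusted p from 0.0502 without pre-basophil replicate 3 to 0.155 without BM mature replicate 1. It was also not called by DESeq2 or limma-voom, with DESeq2 size factors or DEGES scaling or without the filter, and so held in 4 of 20 alternatives. Vamp3, the member that fell at this step, is known as a VAMP of recycling endosomes, the compartment of Rab11a. Its call held in 9 of 20 alternatives, and a shared change of genes of that compartment was not tested.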

How the data were processed

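Bulk RNA sequencing libraries were made by the authors from sorted cells by poly(A) capture, whole-transcriptome amplification (TAS-Seq) and enzymatic fragmentation. Per the labels and the study's methods, reads were trimmed with Cutadapt 3.4 and aligned to reference RNA with Bowtie2 2.4.2. The labels name GRCm39 as the build and the study's methods GRCm38, so coordinates given here come from GENCODE and RefSeq annotations of GRCm38 and are not taken from the files. The deposited table holds unnormalized read counts per gene, and the use of strand in counting was not stated. Genes that overlap a neighbour may share reads.

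Groups were taken from the sample labels. Counts were filtered with filterByExpr, scaled by TMM and fitted over all 12 libraries with edgeR 4.0.16 (R 4.3.3) by the quasi-likelihood test, two-sided, with Benjamini-Hochberg adjustment over 15083 genes and a threshold of 0.05. All adjusted p values are from this test unless another tool is named. Each standard error was derived from the test, as the absolute log2 fold change divided by the square root of its F statistic. The model was tested on simulated data. With 3 libraries a group, moderate changes can be missed, so a gene that passed no test is not shown to be stable. DESeq2 1.42.0 and limma-voom (limma 3.58.1), other scalings, no filter, each library left out in turn, the 6 compared libraries alone and a replicate block were tried. The block over the BM libraries alone was added after seeing the data. Log2 ratios used a prior count of 2, with 0.5 as the alternative. Replicate pools of a group differed by more than counting noise. CPM per kb divides by the union of annotated exons.

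Pools with the same replicate number deviated together from their group means among the BM groups (correlations 0.125 to 0.262 for same numbers, -0.206 to 0.0758 for different numbers), so the numbers were taken to pair the BM pools. Correlations with the spleen pools were 0.000366 to 0.0899 for same numbers and -0.0716 to 0.0127 for different numbers. With the pre-basophil pools alone, same numbers (0.0268 to 0.0899) were all above different numbers (-0.0716 to 0.00341). The spleen pools were not taken as paired, and a weak pairing was not tested.

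The members, gene lists and tests were chosen with earlier results of these data known. Named genes were those known from degranulation, the members called at a step that reached a group mean of 5 CPM, up to 3 such companions per direction and step, and the highest member of each family. Results for 2 tested members are not reported here and are left out of the plots. Sytl1, Vamp4, Sytl4 and Vamp5 were named after their values were seen. Markers of monocytes and of platelets were also summed. Their sums were 25.8 to 297 CPM and 410.2 to 1008 CPM over the libraries.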

Additional observations from a re-analysis of the deposited data

How the results depend on the processing

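Over 96 gene results, 1984 alternative values were computed. Of these, 1793 kept their side of the threshold, 137 lost a call, 54 gained one and 0 of the called values turned direction. For the log2 ratios, 56 alternative values of the difference between pre-basophils and BM mature basophils were computed, and all stayed within the replicate spread. Most of them came from leaving out a library. In groups this small, that cannot move a mean beyond the spread, so these values do not test the ratios. Only the values with the alternative prior count could have left it. The ratios of BaPs and spleen mature basophils were not covered. The count of members called among the 4 groups was 16 to 28 over 19 alternatives, against 20.

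At the BaP step the 4 called members became 2 with scaling by library size alone and 1 with the 6 compared libraries alone, and 1 to 7 on leaving out a library. At the BM mature step the 11 called members became 6 to 14 on leaving out a library. At the spleen step the 1 called member became 0 with library size alone, 6 without the filter, 2 with DESeq2, 3 with the replicate block, 4 with the 6 libraries alone, and 0 to 7 on leaving out a library. For the companions at the BaP step, the 3 calls became 5 with library size alone, 6 with the replicate block, 5 with the replicate block over the BM libraries alone, 1 with the 6 libraries alone and 1 to 9 on leaving out a library. At the BM mature step the 12 companion calls became 7 to 14 on leaving out a library, and at the spleen step the 6 became 11 with the 6 libraries alone and 2 to 13 on leaving out a library. A library outside the 2 compared groups enters a step only through the shared spread, the filter and the scaling. Without BaP replicate 3 the log2 difference of Rab3d between BM and spleen stayed at -0.54. How much each of these changed the counts was not tested. With the replicate block, 6 members were called at the BaP step and 12 at the BM mature step. Beyond those in the text, it changed only the named calls of Rab3d and Sytl1 between BM and spleen (adjusted p = 0.0404 and 0.0433). Spleen pools were not taken as paired with those of the BM. Among the 4 groups the block also gave Rab27a and Stxbp3 a call.

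Depth limits the members below the filter. With 3 pools a group, most calls near the threshold depended on single libraries. The p values measure the spread between pools within groups, estimated over all 12 libraries, so that BaP replicate 3 enters it at every step. Outside the replicate block they take no account of the pairing of the BM pools.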
